A study of Mus musculus with 8 samples.

Results

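Neurotrophins are secreted growth factors that keep neurons alive and shape their growth and synapses. They bind Trk receptor tyrosine kinases with high affinity, BDNF chiefly TrkB and neurotrophin-3 chiefly TrkC, and all of them also bind the receptor p75NTR, which can signal survival or death depending on its partners. In the brain TrkB is made by neurons and, in a truncated form without the kinase, by astrocytes. Expression of 5 genes of this system was followed: the ligand genes Bdnf and Ntf3 (neurotrophin-3), the receptor genes Ntrk2 (TrkB) and Ntrk3 (TrkC), and Ngfr (p75NTR). They were chosen by gene symbol alone, as rows of a raw count table of 32285 genes, and all 5 were found and passed the filter on low counts, which left 15565 genes to test.

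The libraries came from homogenized brain tissue of neonatal C57BL/6 mice. Of the 8, 4 were ICSI-F2, males sired through natural mating by fathers born after intracytoplasmic sperm injection (ICSI, the placing of a sperm into the egg), and 4 were controls, born to naturally mated wild-type parents. The comparison asks whether brain expression differs 1 generation after the ICSI-born one. No treatment was given, the age is stated only as neonatal, and the sex of the controls is not labelled, but Ddx3y, a Y-linked gene, was at 50.03 to 59.7 CPM (counts per 1000000 of the scaled library total) and Xist at 1.14 CPM at most in all 8 libraries. The sample codes carry a letter. Within ICSI-F2, replicates 3 and 4 carry G and replicates 1 and 2 carry F, and within the controls, replicates 1 and 2 carry A and replicates 3 and 4 carry D. Neither the meaning of the letter nor whether pups shared a litter is stated, so p-values reflect the spread among these 8 libraries alone, part of which may be technical. Where a letter differs from the rest, its part and that of the group cannot be told apart by the design alone.

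Library totals ran from 12968175 to 16551511 counts, scaled for CPM by the trimmed mean of M-values (TMM). The 5 genes together held 0.0872% of all counts. Neuron markers (Tubb3, Stmn2, Snap25, Rbfox3 and Dcx) summed to at least 4069 CPM in every library, so the labelled tissue was present. Libraries of letters A and G stood apart from the rest. In the code A libraries all 8 genes of a list of hindbrain and spinal cord markers were above the other 6 libraries, at summed levels of 96.4 and 52.0 CPM against 10.2 CPM at most, and 2 of the 8 genes had no count in any of the other 6. In the code G libraries 6 of 7 meningeal fibroblast markers and 3 of 4 liver markers were above the other 6, with albumin (Alb) at 10.4 and 20.2 CPM. The share of all tested genes with both libraries of a letter above the other 6 was not counted, so these marker counts have no base rate beside them. A transcript in a tissue homogenate can fall because fewer cells of a type are present or because each cell holds less of it, and bulk counts cannot tell these apart.

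Bdnf (ENSMUSG00000048482) spans positions 109674700 to 109727007 of chromosome 2 (mm10, plus strand). Its 5′ exons start at many places, and GENCODE M21 lists 11 transcripts with 9 different starts, all protein-coding. The deposited table gives 1 count for all of them. RefSeq (GRCm38.p6) has 7 start windows for the gene, each of 300 bases, and the letters TCACGTCA, a variant of the cAMP response element (CRE) that CREB proteins bind, were found on either strand in 1 of the 7. Ngfr (ENSMUSG00000000120, minus strand of chromosome 11, 95568818 to 95587735) is the opposite case, with 1 annotated transcript and 1 start window, so its count stands for a single annotated start. Both windows are shown because they set out what the counts of these 2 genes do and do not resolve. Capitals mark the CRE letters in the Bdnf window, chr2:109692186-109692485 on the plus strand, and the Ngfr window, chr11:95587649-95587948 on the minus strand, has none.
Bdnf start window 3: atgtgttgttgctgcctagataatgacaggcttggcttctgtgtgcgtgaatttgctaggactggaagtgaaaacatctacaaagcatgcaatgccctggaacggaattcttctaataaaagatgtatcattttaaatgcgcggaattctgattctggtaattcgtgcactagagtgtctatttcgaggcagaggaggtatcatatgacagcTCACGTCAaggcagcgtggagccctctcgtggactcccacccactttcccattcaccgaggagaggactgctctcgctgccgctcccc
Ngfr start window 1: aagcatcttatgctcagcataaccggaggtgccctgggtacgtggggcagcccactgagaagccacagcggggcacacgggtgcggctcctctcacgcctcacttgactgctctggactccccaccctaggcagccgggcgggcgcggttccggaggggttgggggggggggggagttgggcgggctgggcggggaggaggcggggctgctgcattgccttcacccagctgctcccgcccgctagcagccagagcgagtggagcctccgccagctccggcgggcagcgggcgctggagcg
Of 32851 RefSeq windows of this length, 0.441% hold TCACGTCA on either strand, 1.79% hold the palindrome TGACGTCA, which no Bdnf, Ntf3, Ntrk2 or Ngfr window held, and 20.8% hold the shorter TGACG, which lies inside the reverse complement of TCACGTCA. The Ngfr window has a GC content of 71.7%, with 23 CG dinucleotides, and the Bdnf window one of 48.7%, with 12.

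Per length, both Trk receptor genes were more abundant than the other 3 genes in every library. Ntrk2 (ENSMUSG00000055254, plus strand of chromosome 13, 58806569 to 59133970) stood highest at 21.7 to 24.5 CPM per kilobase of annotated exon. Ntrk3 (ENSMUSG00000059146, minus strand of chromosome 7, 78175959 to 78738012) followed at 12.7 to 14.2 CPM per kilobase, with no overlap between the genes. Ngfr, at 2.22 to 4.88 CPM per kilobase, overlapped Ntf3 (ENSMUSG00000049107, minus strand of chromosome 6, 126101412 to 126166910), at 1.73 to 2.81 CPM per kilobase. Bdnf came last of the 5, at 1.21 to 1.70 CPM per kilobase. Whether Ntf3 and Bdnf stand apart depends on the length used. By the longest transcript Ntf3 stood at 1.99 to 3.25 and Bdnf at 1.76 to 2.48 CPM per kilobase, which overlap, and Ntrk2 and Ntrk3 stayed apart at 47.9 to 54.1 and 19.5 to 21.7. Ntrk2 has 10 annotated transcripts and Ntrk3 has 20, which include forms without the kinase, so a level per gene does not give the level of signalling receptor.

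**Figure D1:**
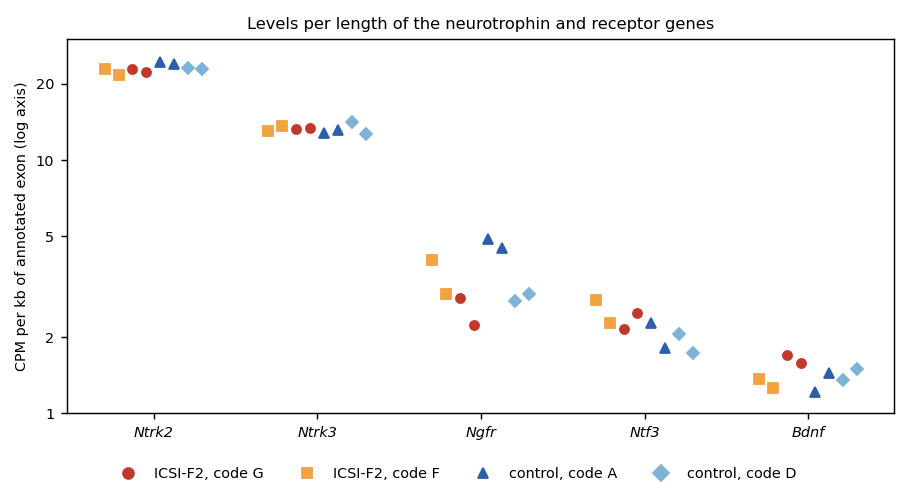
Level of each gene in each of the 8 libraries, as CPM per kilobase of annotated exon on a log axis, with symbols for code letters. Ntrk2 and Ntrk3 lie above 12.7, and the other 3 genes lie between 1.21 and 4.88.

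A further ligand gene, Ntf5, which encodes neurotrophin-4, had 0 to 2 counts in ICSI-F2 and 0 to 4 counts in control libraries. A count of 0 was found in ICSI-F2 replicate 2 and control replicate 2, which allows up to 0.231 and 0.198 CPM when 3 counts are taken as the limit (counting error only). The groups overlapped, and Ntf5 did not pass the filter on low counts.

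None of the 5 genes differed between ICSI-F2 and control brains by edgeR's quasi-likelihood test with Benjamini-Hochberg adjustment over 15565 genes, at an adjusted p of 0.05. At an unadjusted p under 0.05 Ntrk2 alone passed in this fit, and DESeq2 and limma called none of the 5 either. Over all genes 1 was called (0.00642%), Tmem267, which belongs to no list here and is named only because it is the single call. That count was 4, 9 and 3 without control replicates 1, 3 and 4 and 6 without the code A libraries, and none of the 5 genes was called in any of these fits. Ntrk2 was the 1 member of 5 whose groups did not overlap, beside 3.97% of all tested genes, and the members' log2 fold changes ran from -0.31 to 0.30, with a median of 0.02, beside 0.00065 over all tested genes.

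**Figure D2:**
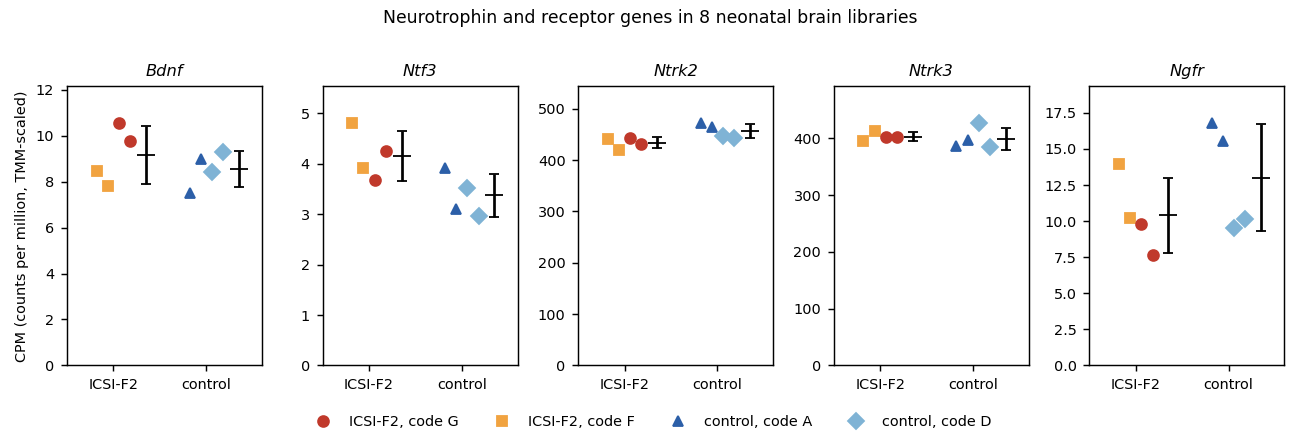
CPM of the 5 genes in each library, ICSI-F2 left of control, with symbols for code letters and, beside the points, the mean with SD (n = 4 each). The groups overlap for every gene except Ntrk2, where 442.7 CPM, the highest ICSI-F2 value, lies just under the lowest control value of 443.9, and Ngfr shows the widest spread relative to its mean.

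Among the ligands, Bdnf stood at 8.47, 7.82, 10.6 and 9.79 CPM in ICSI-F2 replicates 1 to 4, against 7.52, 9.002, 8.42 and 9.31 CPM in control replicates 1 to 4. The groups overlapped, and the highest values were those of the code G libraries, ICSI-F2 replicates 3 and 4. The mean was 9.16 ± 1.24 CPM in ICSI-F2 and 8.56 ± 0.79 CPM in control brains (SD, n = 4 each), and the log2 fold change 0.10 (95% interval -0.14 to 0.34, edgeR adjusted p = 0.899). Without the code G libraries it was -0.06. An antisense gene, Gm45346, covers 14.4% of the Bdnf exon bases, but it reached 0.307 CPM at most. The strand setting of the counting is not stated, so reads of the 2 genes cannot be told apart there.

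Ntf3, whose product supports proprioceptive and other TrkC-bearing neurons, stood at 4.81, 3.91, 3.67 and 4.25 CPM in ICSI-F2 replicates 1 to 4. In control replicates 1 to 4 it stood at 3.91, 3.11, 3.52 and 2.96 CPM. The groups touched only at control replicate 1, which lay above ICSI-F2 replicate 3 and level with ICSI-F2 replicate 2. The log2 fold change of 0.30 was the highest of the 5 genes (SE 0.17, 95% interval -0.04 to 0.65) and did not pass (edgeR unadjusted p = 0.0824, adjusted p = 0.724). With 48 to 79 counts in an ICSI-F2 and 41 to 64 in a control library, counting alone gives an error of 11.3% to 15.6%, about as large as the spread within a group (11.9% in ICSI-F2 and 12.7% in control). A change of up to 1.57-fold higher lies inside the interval.

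Among the Trk receptors, Ntrk2 stood at 442, 419, 443 and 432 CPM in ICSI-F2 replicates 1 to 4, against 473, 464, 446 and 444 CPM in control replicates 1 to 4. All ICSI-F2 libraries were below all controls, by a gap of about 1 CPM, and the code A libraries were the highest. On the log2 scale the fold change was -0.07 (SE 0.03, 95% interval -0.14 to -0.01), a difference of -5.02%, with an edgeR unadjusted p of 0.0219 and an adjusted p of 0.608. Such an unadjusted p in the lower direction was reached by 3.37% of all tested genes. Without the code A libraries the log2 fold change was -0.04 (edgeR adjusted p = 0.947). Astrocyte markers were also highest in the code A libraries. Their 7 genes, none of them at 0 in any library, summed to 711 to 842 CPM in ICSI-F2 and 776 to 974 CPM in control libraries, and 5 of the 7 had both code A libraries above the other 6. The 5 neuron markers summed to 4069 to 4191 CPM in ICSI-F2 and 4243 to 4399 CPM in control libraries, without overlap, as for Ntrk2. Dcx was the 1 of the 5 with no overlap by itself, at 1636 to 1713 CPM in ICSI-F2 and 1746 to 1811 CPM in control libraries, and the groups overlapped in the other 4. The part of either list in the Ntrk2 difference was not tested.

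Ntrk3 showed no difference past the test, and its interval was narrow. It stood at 395, 412, 402 and 403 CPM in ICSI-F2 replicates 1 to 4 and at 386.5, 397, 427 and 384 CPM in control replicates 1 to 4. The ICSI-F2 values lay within the range of the controls, whose highest was replicate 3. The log2 fold change was 0.02, with a 95% interval of -3.55% to 5.93% (edgeR adjusted p = 0.957). Within a library, Ntrk2 had 1.02 to 1.12 counts for each count of Ntrk3 in ICSI-F2 and 1.04 to 1.22 in control brains, and the groups overlapped. Bdnf had 1.76 to 2.88 counts for each count of Ntf3 in ICSI-F2 and 1.92 to 3.15 in control brains, again with overlap.

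**Figure D3:**
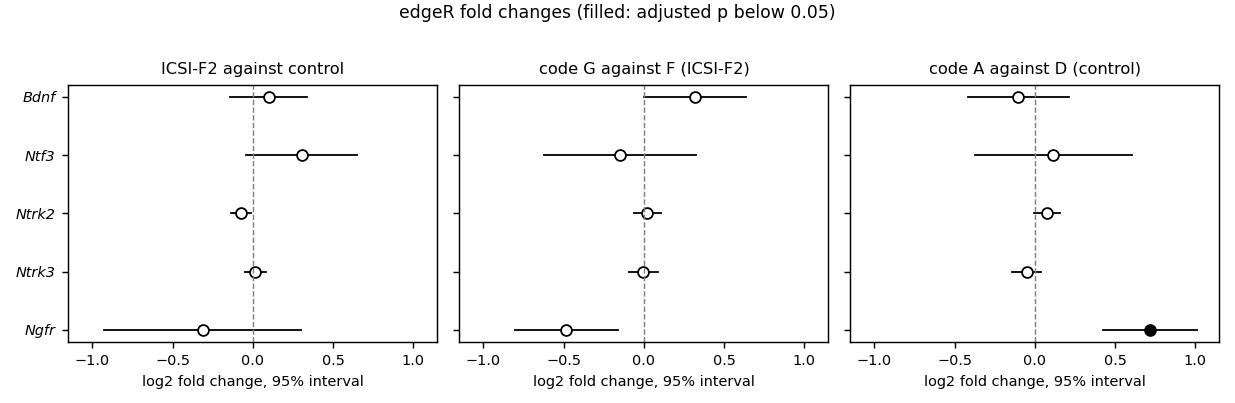
Log2 fold changes of the 5 genes with their 95% intervals in the 3 edgeR comparisons, with filled points for an adjusted p below 0.05. The only filled point is Ngfr in code A against code D, at 0.72, and the intervals of Ntrk2 and Ntrk3 are the narrowest.

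Ngfr was the most variable of the 5 genes. Its levels were 13.95, 10.2, 9.795 and 7.67 CPM in ICSI-F2 replicates 1 to 4 and 16.8, 15.6, 9.55 and 10.2 CPM in control replicates 1 to 4. The high libraries were the code A controls and, next, ICSI-F2 replicate 1, while the code D controls lay within the ICSI-F2 range. The spread within a group was 25.1% of the mean in ICSI-F2 and 28.3% in control, where counting alone gives 6.03% to 9.95%. The mean was 10.4 ± 2.61 CPM in ICSI-F2 and 13.0 ± 3.69 CPM in control brains (SD, n = 4 each), with a log2 fold change of -0.31 (95% interval -0.93 to 0.30, edgeR adjusted p = 0.844). The direction rested on the code A libraries. Without them the log2 fold change was 0.09, and without the code A and G libraries, an alternative added after the values were seen, it was 0.31 (edgeR adjusted p = 0.974 and 0.876). Without the code G libraries alone it stayed negative but shrank to -0.10 (edgeR adjusted p = 0.981), so its size depended on those libraries too.

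Within the controls, Ngfr was higher in code A than in code D libraries, at 16.8 and 15.6 against 9.55 and 10.2 CPM, 1.64-fold (log2 fold change 0.72, SE 0.14, 95% interval 0.42 to 1.01). The edgeR adjusted p was 0.00673, in a fit with the 4 letters as cells. It was the 1 member of 5 called there, where 0.957% of all tested genes were called (149 genes). With single libraries left out the call was lost without control replicate 1 (adjusted p = 0.151) and without control replicate 3 (0.179), and DESeq2 gave an adjusted p of 0.0629, while the log2 fold change stayed between 0.66 and 0.77 in every alternative run. The same omissions brought the 149 calls to 19 and 26. Within ICSI-F2, Ngfr stood at 9.795 and 7.67 CPM in code G against 13.95 and 10.2 CPM in code F libraries, a log2 fold change of -0.48 that did not pass (edgeR unadjusted p = 0.00449, adjusted p = 0.397). It was -0.22 without ICSI-F2 replicate 1, -0.68 without replicate 2, -0.67 without replicate 3 and -0.32 without replicate 4, and passed in none of these fits (edgeR adjusted p = 0.0632 to 0.842). No member was called between G and F, beside 0.263% of all tested genes. Bdnf was the other member with letters apart there, at 10.6 and 9.79 against 8.47 and 7.82 CPM (log2 fold change 0.32, edgeR adjusted p = 0.731). With only 2 libraries a letter, 35.6% of all tested genes had no overlap between G and F and 40.7% none between A and D, where Ngfr and Ntrk2 were the 2 members apart.

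Markers of the hindbrain and spinal cord list were highest in the same code A libraries as Ngfr, but most of them did not follow it in the other 6 libraries. The glycine transporter gene Slc6a5, used by glycinergic neurons of brainstem and spinal cord, stood at 6.28, 2.53, 3.14 and 0.68 CPM in ICSI-F2 replicates 1 to 4 and at 26.1, 21.8, 1.07 and 1.804 CPM in control replicates 1 to 4. For Slc6a5 the code A controls were highest and ICSI-F2 replicate 1 came next, as for Ngfr. The 6 Hox genes of the list, which mark position along the hindbrain and spinal cord, were not at their highest in ICSI-F2 replicate 1 within ICSI-F2. Hoxa5, Hoxb5, Hoxb6 and Hoxb8 had no count there, and Hoxa3 and Hoxb3 stood at 0.55 and 1.34 CPM there against 0.69 and 1.53 CPM in ICSI-F2 replicate 3. The whole list of 8 hindbrain and spinal cord genes summed to 1.06 to 10.2 CPM in ICSI-F2 and 1.38 to 96.4 CPM in control libraries.

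Ngfr is also known from cholinergic neurons and from granule cell precursors of the neonatal cerebellum. Of the 5 genes of cholinergic and motor neurons, the choline transporter gene Slc5a7 stood at 5.59 to 6.74 CPM in ICSI-F2, at 9.23 and 9.80 CPM in code A and at 6.03 and 5.20 CPM in code D libraries, and it passed in code A against D (edgeR adjusted p = 0.0158). Isl1, a transcription factor gene of the same list, passed in the opposite direction, at 19.7 and 21.1 CPM in code A against 25.8 and 29.4 CPM in code D libraries (log2 fold change -0.43, edgeR adjusted p = 0.0322). Slc18a3 stood at 4.16 and 4.24 CPM in code A against 2.07 and 2.31 CPM in code D libraries. Its code A libraries were both above the other 6, as for Slc5a7. Slc18a3 and Chat had log2 fold changes of 0.94 and 0.84 in code A against D and did not pass (edgeR adjusted p = 0.0922 and 0.508). Isl1 was the most abundant gene of the list, at 19.6 to 29.4 CPM over the 8 libraries. The motor neuron gene Mnx1 was at 0 in 7 of the 8 libraries, and the list summed to 28.3 to 32.8 CPM in ICSI-F2 and 34.7 to 37.4 CPM in control libraries. The 5 genes of the cerebellar granule lineage summed to 348, 258, 269 and 267 CPM in ICSI-F2 replicates 1 to 4 and 354, 302.5, 272 and 272 CPM in control replicates 1 to 4, so that the 3 libraries highest in Ngfr were also the 3 highest here, although no single gene of the list had both code A libraries above the other 6. One of them, Barhl1, was at 27.7 CPM in ICSI-F2 replicate 1 and 27.6 CPM in control replicate 1. Barhl1, Zic1, Zic2 and Atoh1, the last below the filter on low counts, each had the 3 libraries highest in Ngfr as their 3 highest. For En2, ICSI-F2 replicate 3, at 11.9 CPM, lay above control replicate 2, at 11.3 CPM. In the sensory ganglia list the 5 genes summed to 20.2, 20.2, 16.1 and 16.9 CPM in ICSI-F2 replicates 1 to 4 and 28.8, 24.9, 17.9 and 19.7 CPM in control replicates 1 to 4, highest in code A and next in ICSI-F2 replicates 1 and 2. Prph, an intermediate filament gene of peripheral and brainstem neurons, passed in code A against D, at 10.8 and 8.54 against 1.01 and 3.54 CPM (edgeR adjusted p = 0.00582). It was the 1 gene of this list with both code A libraries above the other 6. In the same comparison Scn10a had a log2 fold change of -0.72, Avil one of 0.16 and Pou4f1 one of 0.09, and none of them passed. Isl2, the remaining gene of the list, did not pass the filter on low counts. The Schwann and neural crest list summed to 25.1 to 43.3 CPM in ICSI-F2 and 26.8 to 45.0 CPM in control libraries. The part of these lists in the Ngfr difference was not tested.

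**Figure D4:**
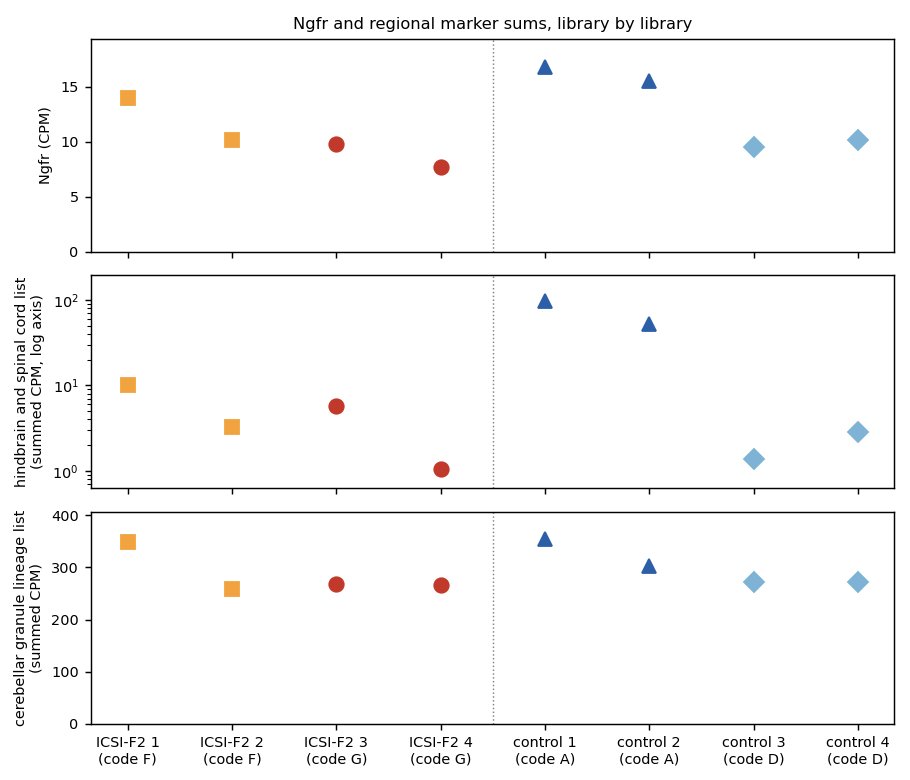
Ngfr in CPM, the summed CPM of 8 hindbrain and spinal cord markers (log axis) and the summed CPM of 5 cerebellar granule lineage markers in each library, ICSI-F2 left of the dotted line and control right of it. The code A controls, with 96.4 and 52.0 CPM of hindbrain markers, and ICSI-F2 replicate 1, with 10.2 CPM, have the 3 highest levels of Ngfr.

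The genes whose log2 CPM followed each member most closely over the 8 libraries were named by Pearson correlation, as a description. For Ngfr they were the transcription factor gene Pax2 (r = 0.971), Irak2 (0.967) and the glycine receptor subunit gene Glra1 (0.965). Pax2 ran from 0.30 CPM in ICSI-F2 replicate 4 to 14.4 CPM in control replicate 1. For Ntrk2 they were the glycolytic enzyme genes Eno1 (0.991) and Gapdh (0.976) and, between them, Sesn3 (0.988). For Ntrk3 they were Spopl (0.961), Atf7 (0.957) and the actinin gene Actn1 (0.955), for Bdnf Clec2d (0.979), Ecm1 (0.971) and the histone gene Hist2h3c1 (0.971), and for Ntf3 Prrt2 (0.944), 2810454H06Rik (0.934) and Fastkd2 (0.927). These are the top of 15564 correlations over 8 libraries that share letters and groups, and 8 genes (for Ntf3) to 120 genes (for Ntrk2) had an r above 0.9. Ranked by Spearman's rho, 3 of the 15 were again among the top 3 of their member.

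Genes around the neurotrophins were taken from 6 lists of partners and targets, in which no gene passed between ICSI-F2 and control in edgeR, where 3.93% of tested genes were higher and 3.37% lower at an unadjusted p under 0.05. At that p the processing and sorting list held 1 gene higher and 2 lower, the Trk adaptors 0 and 0, the p75NTR partners 1 and 1, the Bdnf regulators 1 and 2, the Trk-responsive genes 0 and 2 and the other trophic factors 1 and 3. Of the genes that process proneurotrophins or sort them, 5 of 17 tested were higher and 12 lower in ICSI-F2, with a median log2 fold change of -0.04. Cpe, the carboxypeptidase that helps sort proBDNF, stood at 458 ± 17.6 CPM in ICSI-F2 and 489 ± 14.9 CPM in control brains (SD, n = 4 each; log2 fold change -0.10, edgeR adjusted p = 0.539). The convertase gene Pcsk6 was at 9.57, 9.04, 9.87 and 9.18 CPM in ICSI-F2 and at 12.04, 10.8, 9.93 and 12.1 CPM in control replicates 1 to 4, with no overlap (log2 fold change -0.25, edgeR adjusted p = 0.608). The metalloproteinase gene Mmp9 had a log2 fold change of 0.28 and the convertase gene Pcsk5 one of 0.10. The sorting receptor genes Sort1 and Sorl1 stood at 186 and 117 CPM in ICSI-F2 and 191 and 122 CPM in control brains.

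Of 35 genes of Trk adaptors and signalling, 14 were higher and 21 lower, with a median of -0.02. The most abundant was Kidins220, a scaffold of Trk receptors, at 838 ± 12.2 CPM in ICSI-F2 and 845 ± 20.5 CPM in control brains (SD, n = 4 each), and the PI3-kinase subunit gene Pik3r1 averaged 308 CPM in ICSI-F2 and 322.5 CPM in control. Shc1, an adaptor of activated Trk receptors, was at 14.6, 16.0, 16.2 and 14.7 CPM in ICSI-F2 and at 13.9, 13.6, 14.2 and 12.9 CPM in control replicates 1 to 4, with no overlap (log2 fold change 0.17, edgeR adjusted p = 0.695). Shc2, of the same adaptor family, had a log2 fold change of -0.10, and Plcg1, the phospholipase that Trk receptors activate, one of 0.04.

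Of 21 tested partners and co-receptors of p75NTR, 9 were higher and 12 lower, with a median of -0.02. Adam17, the protease that sheds the p75NTR ectodomain, was at 32.5, 31.3, 32.9 and 34.1 CPM in ICSI-F2 and at 28.4, 30.4, 28.0 and 28.6 CPM in control replicates 1 to 4, without overlap (log2 fold change 0.18, 95% interval 0.05 to 0.31, edgeR unadjusted p = 0.00673, adjusted p = 0.539). The small GTPase gene Rhoa had a log2 fold change of -0.10 and Arhgdia, its inhibitor that binds p75NTR, one of -0.08. The intracellular partner gene Maged1 stood at 586.5 CPM in ICSI-F2 and 584 CPM in control brains, the co-receptor gene Lingo1 at 170 CPM in ICSI-F2 and 174 CPM in control, and the log2 fold change of Bex1 was 0.06.

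Of 27 regulators of Bdnf transcription, 10 were higher and 17 lower, with a median of -0.01. The deacetylase gene Hdac2 was at 183, 188, 184 and 183 CPM in ICSI-F2 and 168, 178, 181 and 174 CPM in control replicates 1 to 4, without overlap (log2 fold change 0.08, edgeR adjusted p = 0.658), and the repressor gene Rest had a log2 fold change of 0.10. Mef2d, an activity-dependent activator gene, and the deacetylase gene Hdac5 had log2 fold changes of -0.10 and -0.09. Mef2c, a relative of Mef2d, at 494 CPM in ICSI-F2 and 514 CPM in control brains, did not pass between the groups. Mef2c was lower in code A, at 466 and 494 CPM, than in code D, at 567 and 529 CPM (edgeR adjusted p = 0.0215). The kinase gene Camk2b and the CREB coactivator gene Crebbp, the other most abundant genes of the list, had log2 fold changes of 0.0045 and -0.01.

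Genes that respond to Trk signalling were lower in ICSI-F2 in 24 of 29 cases, with a median log2 fold change of -0.07, where 49.6% of all tested genes were lower. The immediate early gene Egr1 was at 10.7, 10.1, 8.88 and 8.27 CPM in ICSI-F2 and at 14.1, 10.7, 10.9 and 11.9 CPM in control replicates 1 to 4 (log2 fold change -0.32, edgeR adjusted p = 0.54). Etv1, a transcription factor gene downstream of ERK, was at 59.2, 67.0, 66.4 and 66.0 CPM in ICSI-F2 and 69.5, 73.0, 68.6 and 73.8 CPM in control replicates 1 to 4, without overlap (log2 fold change -0.14, edgeR adjusted p = 0.54). The CREB-family gene Crem and the synaptic scaffold gene Homer1 had the smallest p among the 5 higher genes, with log2 fold changes of 0.11 and 0.02, and the ERK inhibitor genes Spred1 and Spred2 had values of -0.01 and -0.08. Without the code A libraries 15 of 29 were lower and the median was -0.0056, and without the code G libraries 22 of 29 were lower. The somatostatin gene Sst was higher in code A, at 39.8 and 37.6 CPM, than in code D, at 30.1 and 29.1 CPM (edgeR adjusted p = 0.0144).

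**Figure D5:**
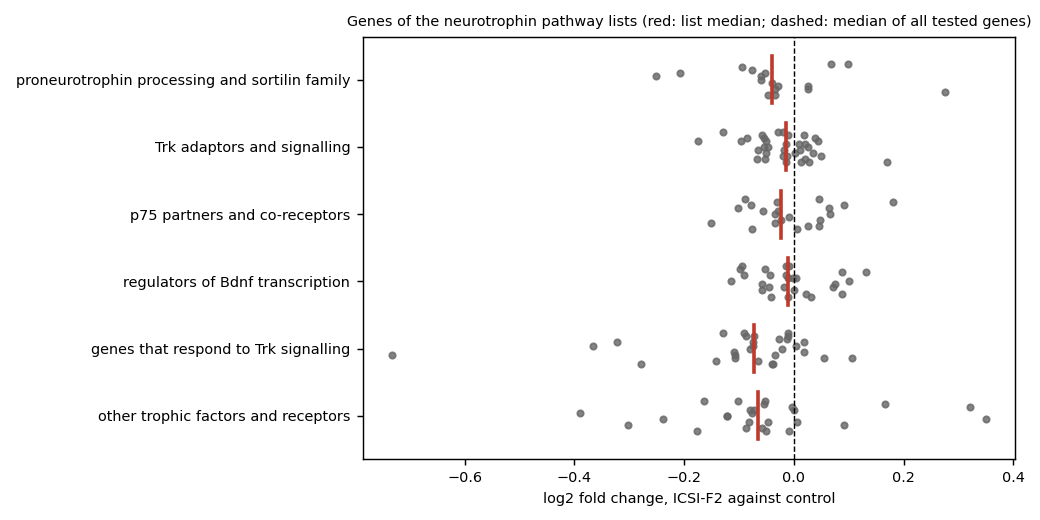
Log2 fold change of each tested gene of the 6 lists, ICSI-F2 against control, with the list median as a red bar and the median of all tested genes as a dashed line. The points lie on both sides of 0 in every list, and the medians run from -0.07, for genes that respond to Trk signalling, to -0.01.

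Other trophic factors and receptors gave a like count, with 20 of 26 lower and a median of -0.07. Without the code A libraries 16 of 28 were lower and the median was -0.02, and without the code G libraries 21 of 28 were lower and the median was -0.09. Nrg3, a neuregulin gene, was at 107 ± 6.16 CPM in ICSI-F2 and 95.5 ± 9.20 CPM in control brains (SD, n = 4 each; log2 fold change 0.17, edgeR adjusted p = 0.562), and Ctf1, the cardiotrophin gene, had a log2 fold change of 0.32. Igf1r and Lifr, receptors for IGF1 and LIF, had log2 fold changes of -0.08 and -0.12. The pleiotrophin gene Ptn stood at 343 CPM in ICSI-F2 and 341 CPM in control, and the neuregulin receptor gene Erbb4 at 185 CPM in ICSI-F2 and 193 CPM in control. Ret, the GDNF receptor kinase gene, was at 18.9, 18.7, 19.3 and 16.6 CPM in ICSI-F2 replicates 1 to 4 and 28.1, 30.1, 19.2 and 18.8 CPM in control replicates 1 to 4. Ret was thus higher in code A than in code D (log2 fold change 0.61, edgeR adjusted p = 0.000891), as Ngfr was, as was the kinase gene Map2k1 of the Trk list (47.1 and 46.3 against 34.3 and 36.4 CPM, edgeR adjusted p = 0.00362). Igf1 was higher in code G, at 39.6 and 44.7 CPM, than in code F, at 25.5 and 30.7 CPM (edgeR adjusted p = 0.00162), beside the higher meningeal and liver markers of those libraries, whose part was not tested.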

How the data were processed

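Messenger RNA of neonatal brain was sequenced in 8 libraries, as single reads of 76 bases from stranded libraries, per the labels. The submitters' processing notes list HISAT2 2.2.1, HTSeq 2.0.2, cutadapt 3.4 and bcl2fastq 2.20, and the build mm10. The authors deposited raw counts, 1 column per library, neither normalized nor pooled. The sources used here give no annotation release and no strand setting. Coordinates and lengths come from GENCODE M21 on the same build, where 99.6% of gene identifiers were found.

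Groups came from the sample titles, and replicate numbers follow the order of deposition and pair nothing. Group differences were fitted to the counts by edgeR 4.0.16 under R 4.3.3 (filterByExpr, TMM, robust quasi-likelihood F test, Benjamini-Hochberg, adjusted p of 0.05), with group as the only term or, for the letter comparisons, with the 4 code letters as cells. Intervals are 95% intervals of the fit. The procedure was tested on simulated data. False calls among its calls exceeded the set rate for code G against F and lay just above it for code A against D. DESeq2 1.42.0, limma 3.58.1, other scalings and filters, left-out libraries and the letter as a random block were alternatives. No library was a copy of another of its group, since the chi-square per gene between libraries of 1 group was 2.20 to 5.84. Pairs of an ICSI-F2 and a control library were not compared in this way. The members and lists were chosen with earlier results of these data known, and so were the alternatives that leave out letter A or G. The text names all members, a further ligand gene, each list gene that passed, and otherwise the 2 genes with the smallest p in each direction and the 3 most abundant of each list. It also names the 3 genes most correlated with each member, the genes that overlap a member's exons, and marker genes beside a member. The marker lists were fixed with the pathway lists. Some genes that this rule names are not reported here.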

Additional observations from a re-analysis of the deposited data

Results flagged for a closer look

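In 90 pairs of a named gene and a group, the gap between the most extreme library and its nearest neighbour was compared with the group's range, which by chance flags about 1 in 20. It flagged 4, all in ICSI-F2 and none of them one of the 5 neurotrophin and receptor genes. In ICSI-F2 replicate 1, Mmp9 was high (11.9 CPM, with 10.3 to 10.6 CPM in replicates 2 to 4). In the same library Shc2 was low (49.4 CPM, with 52.0 to 52.4 CPM in replicates 2 to 4), and so was Etv1 (59.2 CPM, with 66.0 to 67.0 CPM). In ICSI-F2 replicate 3, Pik3r1 was high (332 CPM, with 298 to 302 CPM in replicates 1, 2 and 4).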

How the results depend on the processing

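No paired analysis was possible because the labels number no replicates across the groups. Between ICSI-F2 and control edgeR called 1 gene. The count was 50 with no filter on low counts, 4 with DESeq2, 6 without the code A libraries, 8 without the code A and G libraries (added after the values were seen) and 23 with the group effect averaged over letters. It ran from 1 to 9 with single libraries left out, where control replicates 1, 3 and 4 gave 4, 9 and 3. None of the 5 genes was called in any of these or the other alternatives. Code G against F gave 41 calls, 97 with no filter, 23 with DESeq2 and 13 to 64 with single libraries left out, where ICSI-F2 replicates 1 to 4 gave 22, 64, 13 and 17. Code A against D gave 149 calls, 365 with no filter, 69 with DESeq2 and 19 to 237 with single libraries left out, where control replicates 1, 3 and 4 gave 19, 26 and 98 and ICSI-F2 replicates 1 and 2 gave 236 and 237.

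Ntf3 (0.22 to 0.43) and Ntrk2 (-0.09 to -0.04) kept the sign of their log2 fold change between ICSI-F2 and control in all 19 alternatives. Without the code A libraries Ngfr turned to 0.0936 and Ntrk3 to -0.0107. Without the code G libraries Bdnf turned to -0.0642. Without both, Bdnf was at -0.116, Ntrk3 at -0.00917 and Ngfr at 0.307. With single libraries left out Ntrk3 ran from -0.00288 to 0.0505. In code G against F it ran from -0.0343 to 0.0267, Ntf3 from -0.281 to 0.02 and Ntrk2 from -0.0156 to 0.0614. In code A against D, Bdnf ran from -0.235 to 0.0252, Ntf3 from -0.0637 to 0.266 and Ntrk3 from -0.124 to 0.0272. Scaling by library totals alone moved the median of all genes to 0.0115 and the medians of the 6 lists to between -0.06 and -0.00056, with no change of sign. The limma consensus correlation within letters was 0.028. With the longest transcript as length, Bdnf, Ntrk2 and Ntrk3 averaged 2.08, 50.9 and 20.4 CPM per kilobase, against 1.43, 23.1 and 13.3. The cause of these shifts was not tested. For Ntf3, at 41 to 79 counts per library, the counting error was about as large as the spread within a group. For Ngfr in code G against F single omissions gave -0.677 to -0.224.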
